A study of Mus musculus with 6 samples.

Results

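Nucleotide synthesis and one-carbon genes encode the enzymes that build purines and pyrimidines, salvage them, turn ribonucleotides into deoxyribonucleotides and supply folate-bound carbon. The list held 32 genes, given by symbol and drawn up with earlier results of these data known. Of these, 31 matched a row of the 49585 in the deposited count table through the Ensembl identifier of GENCODE M21, and all 31 were among the 13744 genes with enough counts to be tested. Pnp, purine nucleoside phosphorylase, was not analysed here, since its GENCODE M21 identifier had no row. No older identifier was used for it, so its counts may stand in another row. Poly(A) RNA was sequenced from MA9 cells, leukaemia cells of mouse bone marrow. MA9 usually stands for MLL-AF9, a fusion oncogene. One group was Gata2 KO (Gata2 -/-; named Cre in the sample descriptions) and the other Gata2 f/f, with loxP-flanked alleles of this blood progenitor transcription factor. The 3 libraries per genotype are numbered 1 to 3. Every culture, grown with murine IL-3, IL-6 and SCF, had been in 5 uM Nutlin for 18 h. Nutlin blocks the binding of MDM2 to p53, so both genotypes are compared in cells with p53 stabilised and no effect of Nutlin itself was measured. Each KO library also carries the name Cre, so effects of Cre and of the deletion cannot be told apart, and the labels do not say which Cre was used or whether equal numbers share an animal.

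De novo purine synthesis builds inosine monophosphate on ribose phosphate, and a branch through Impdh and Gmps leads to guanine nucleotides. De novo pyrimidine synthesis builds uridine monophosphate, which becomes the cytidine and thymidine nucleotides. The folate cycle carries the carbon from serine that purine and thymidylate synthesis consume. Dividing blood cells and leukaemias depend on these routes to copy DNA and make RNA, and several drugs used in leukaemia block them.

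Total counts per library ran from 18651102 to 26440960 in Gata2 KO and from 17138687 to 25158033 in Gata2 f/f. The targeted gene went against 1 label. Gata2 had 5.44 and 4.33 CPM (the count scaled to the TMM-adjusted library size) in the libraries labelled Gata2 KO 1 and 3 but 43.3 CPM in that labelled Gata2 KO 2, against 33.6, 22.3 and 18.4 CPM in Gata2 f/f 1, 2 and 3. Of the myeloid markers, the leukocyte gene Ptprc lay at 231 to 293 CPM in Gata2 KO and 223 to 264 CPM in Gata2 f/f, and the leukaemia-linked Hoxa9 at 197 to 231 and 168 to 178 CPM. Of the 7 leukaemia and myeloid progenitor markers, 5 had a positive log2 fold change and Cd34 and Kit a negative one (median 0.18). Cd34, Kit and Mpo varied more between libraries than Ptprc and Hoxa9. Cd34 had 4.68, 37.1 and 6.68 CPM in Gata2 KO 1, 2 and 3, against 35.1, 39.2 and 33.6 CPM in Gata2 f/f 1, 2 and 3 (called lower by DESeq2 with the block, adjusted p = 0.0029). Kit had 59.7, 58.0 and 1.34 CPM in Gata2 KO, against 88.7, 78.1 and 28.5 CPM in Gata2 f/f. Mpo had 952, 212 and 28.0 CPM in Gata2 KO, against 219.8, 446 and 84.9 CPM in Gata2 f/f. Elane lay at 1504 to 2491 CPM in Gata2 KO and 1305 to 2280 CPM in Gata2 f/f. Meis1 lay at 58.4 to 68.7 and 42.9 to 74.4 CPM. Summed over 7 lymphocyte markers the level was 1.05 to 2.98 CPM in Gata2 KO and 0.741 to 1.99 CPM in Gata2 f/f. Over 7 erythroid markers it was 4.49 to 11.0 CPM in Gata2 KO and 2.85 to 4.33 CPM in Gata2 f/f. Over 6 stroma and endothelium markers it was 148 to 213 CPM in Gata2 KO and 130 to 179 CPM in Gata2 f/f. Both libraries numbered 3 stood apart from the other 4 in monocyte and macrophage markers. Summed over 9 monocyte and macrophage markers, the level was 475, 412 and 1699 CPM in Gata2 KO 1, 2 and 3, against 194, 208 and 1228 CPM in Gata2 f/f 1, 2 and 3. Over 8 mature neutrophil markers it was 1451, 525 and 2656 CPM in Gata2 KO, against 229, 540.4 and 844 CPM in Gata2 f/f, so that KO 1 exceeded f/f 3. DESeq2 with the block called 5 of these 8 and 1 of the 9 monocyte and macrophage markers higher in Gata2 KO. It called 1.42% of all genes higher. None of these 17 markers was at 0. In bulk RNA, fewer cells of a type and less RNA per cell cannot be told apart.

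As a list, the genes lay lower in Gata2 KO than in Gata2 f/f by a small amount that no single gene carried past the test. Of the 31 tested, 26 had a negative log2 fold change of Gata2 KO over Gata2 f/f (83.9%), where 47.5% of all 13744 genes did. The median was -0.24 over the list and 0.02 over all genes. The pooled within-group SD of the libraries' list medians was 0.27, so the shift did not exceed the spread between libraries. With each gene's log2 CPM centred on its mean, the list median was 0.031, 0.121 and -0.411 in Gata2 KO 1, 2 and 3. In Gata2 f/f 1, 2 and 3 it was 0.230, 0.243 and -0.079, so the genotypes overlapped. No member was called by edgeR's quasi-likelihood test with Benjamini-Hochberg adjustment at 0.05 over all genes (adjusted p = 1.00 for each). Over all genes the test called 0 (0.0%), with 171 (1.24%) at an unadjusted p under 0.05, none of them a member. With the replicate number as a block, 5 members (16.1%), Ppat, Gmps, Dut, Upp1 and Shmt1, had an unadjusted p under 0.05, where 10.7% of all genes did, and none was called. DESeq2 called 7 genes (0.0513%), 2 higher (0.0146%) and 5 lower (0.0366%) in Gata2 KO, none of them a member. It gave neither an unadjusted nor an adjusted p for Upp1, so that fit could not call this gene. The most marked exception in direction was Upp1, a uridine salvage gene, which was higher in the Gata2 KO library of every number.

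**Figure D1:**
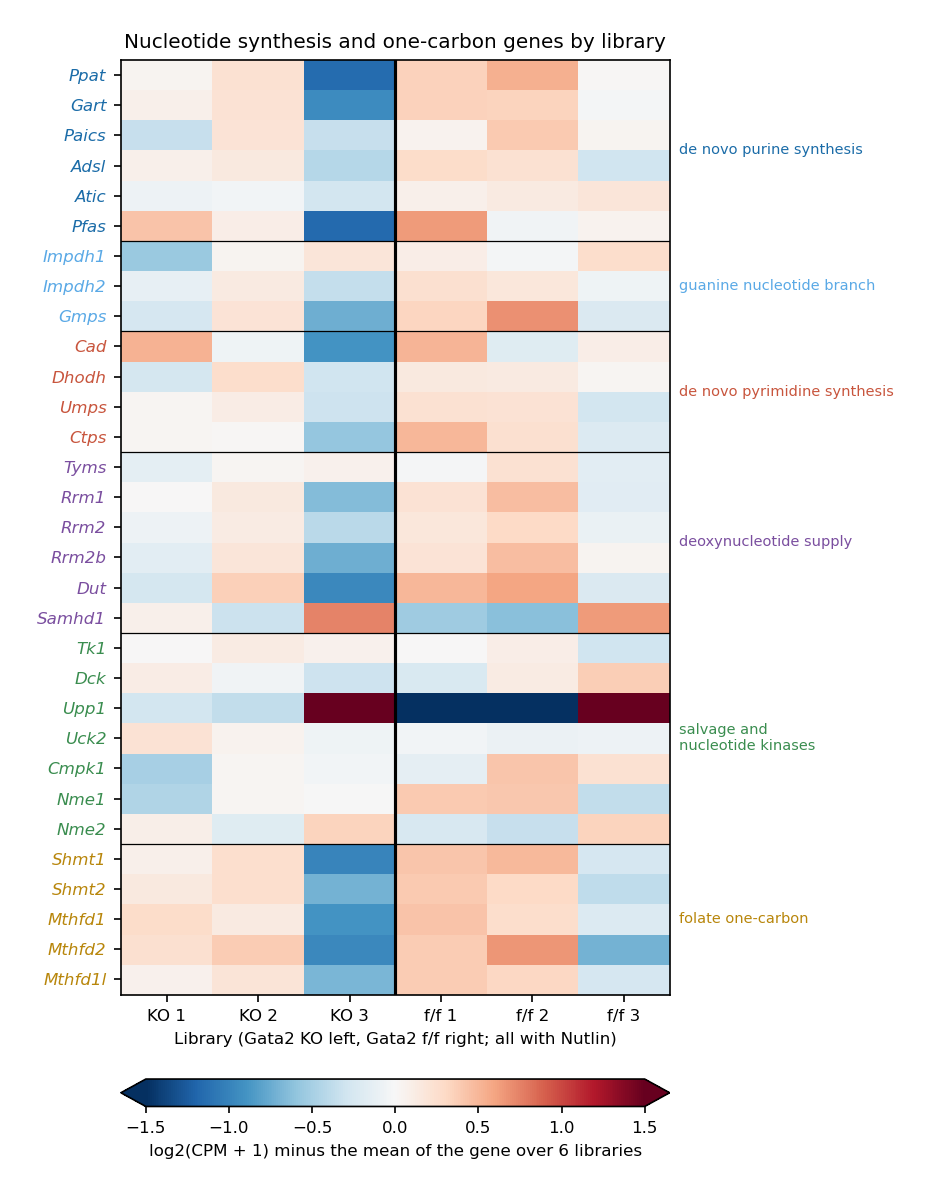
Level of the 31 tested genes in each library, as log2(CPM + 1) minus the mean of that gene over the 6 libraries, with the 3 Gata2 KO libraries left of the line and the 3 Gata2 f/f libraries right of it. Gata2 KO 3 was the lowest library for 22 genes. Upp1 and Samhd1 were highest in the libraries numbered 3.

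The libraries numbered alike were compared with each other. In number 2 Gata2 itself was not lower in the library labelled KO, at 43.3 CPM against 22.3 CPM in f/f 2. The pairing of numbers 1 and 2 is also uncertain. Deviations from the group means correlated more between f/f 1 and KO 2 (0.46) than between f/f 1 and KO 1 (0.29). KO 1 was below f/f 1 for 25 of the 31 genes, KO 2 below f/f 2 for 22 and KO 3 below f/f 3 for 24, against 47.4%, 45.9% and 50.3% of all genes. The median log2 difference of the list was -0.25, -0.14 and -0.33 for numbers 1, 2 and 3. For 19 genes (61.3%) the KO library was the lower one within each number, where 17.7% of all genes were. For 4 genes (12.9%), Samhd1, Upp1, Uck2 and Nme2, it was the higher one each time, against 20.7% of all genes. In number 3 this difference was only 0.016 for Uck2 and 0.003 for Nme2, which had 38 raw counts in KO 3 and 40 in f/f 3. Gata2 KO 3 contributed most to the list's value. It was the lowest of the 6 libraries for 22 genes (71.0%), where this held for 31.9% of all genes. Without Gata2 KO 3 the median of the list was -0.11, without the library labelled Gata2 KO 2 it was -0.39, and without Gata2 f/f 3 it was -0.38. The 16 proliferation genes examined beside them, which include Mki67 and the Mcm helicase genes, had a median log2 fold change of -0.20. Of these, 14 were negative, and Mki67 (0.44 ± 0.87) and Plk1 (0.26) were positive. Within numbers 1, 2 and 3 their medians were -0.010, -0.063 and -0.65. The part of proliferation or of mature myeloid cells in the nucleotide gene values was not tested.

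**Figure D2:**
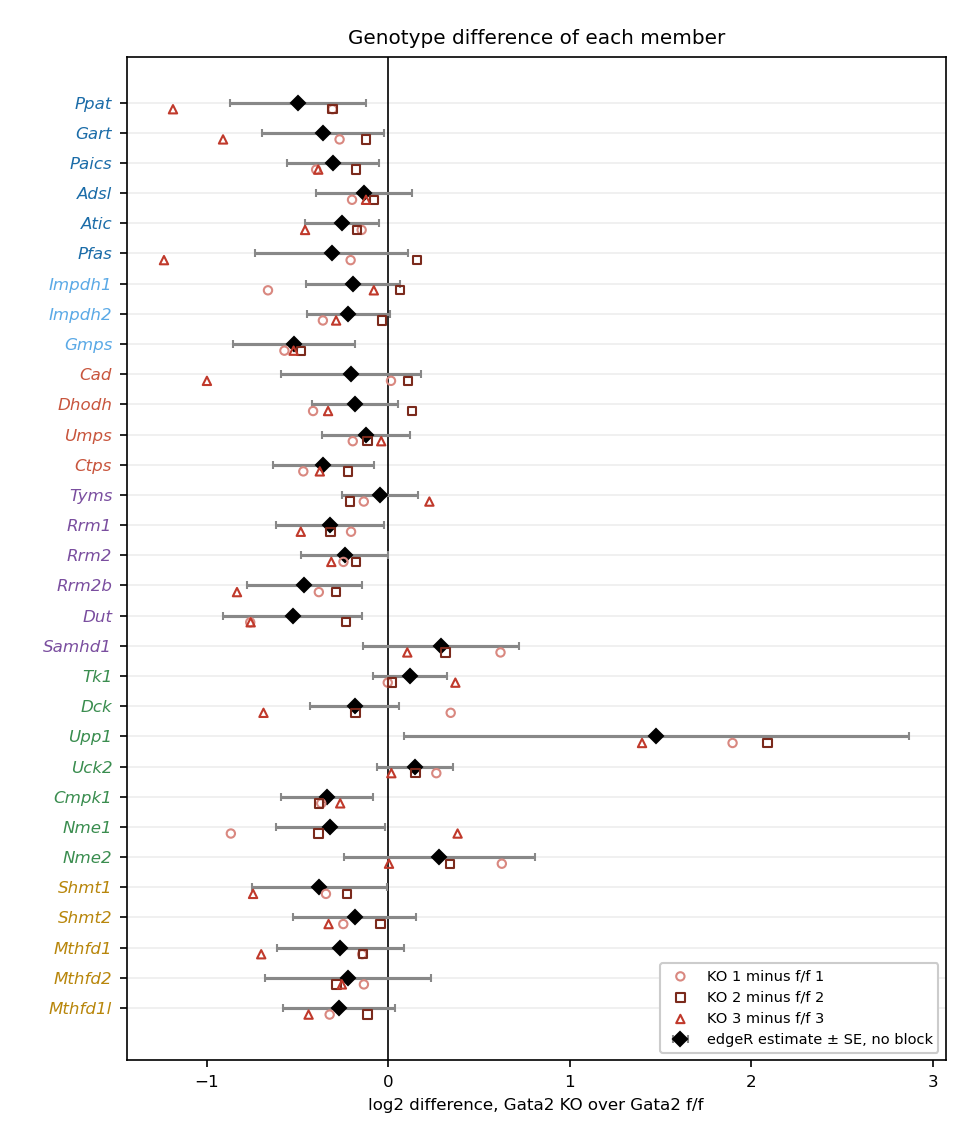
Log2 difference of Gata2 KO over Gata2 f/f for each of the 31 genes, in the order and colours of the plot of levels by library. Black diamonds are edgeR estimates without a block, with their SE, and open symbols are the differences between libraries of equal number. All 3 open symbols lie left of zero for 19 genes and right of zero for 4.

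All 6 enzymes of de novo purine synthesis had negative values, from -0.50 for Ppat to -0.14 for Adsl, with a median of -0.31. Ppat, the amidotransferase that commits ribose phosphate to the route, had 111, 128 and 48.2 CPM in Gata2 KO 1, 2 and 3, against 138, 158 and 109.8 CPM in Gata2 f/f 1, 2 and 3. KO 3 lay far below the rest, and KO 1 and 2 overlapped the f/f range. Its log2 fold change was -0.50 ± 0.37 (SE), with an unadjusted p of 0.221 by edgeR. Paics, which carries the carboxylation and succinocarboxamide steps later in the route, had 240.2, 353 and 239 CPM in Gata2 KO, against 317, 399.6 and 312 CPM in Gata2 f/f. Its KO library was the lower one for every number, at a log2 fold change of -0.31 ± 0.25. Atic, which closes the purine ring, had 302, 309 and 263 CPM in Gata2 KO, against 335, 349 and 362 CPM in Gata2 f/f. It was the one member whose genotypes did not overlap with KO lower, a layout that 2.78% of all genes had. Its means were 291 ± 24.6 and 349 ± 13.6 CPM (SD, n = 3 each), and the log2 fold change, -0.26 ± 0.20, did not pass the test. Gart, a trifunctional enzyme of the early steps, had -0.36 ± 0.34, and 1014 of its exon bases (19.7%) lie opposite the antisense gene Gm15964. Adsl and Pfas, the adenylosuccinate lyase and the formylglycinamidine synthase of the route, had -0.14 ± 0.26 and -0.31 ± 0.42. Without Gata2 KO 3 the value of Pfas was 0.012.

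Ppat and Paics start head to head on GRCm38 chromosome 5, and their annotated exons share 272 bases on opposite strands. Ppat (ENSMUSG00000029246) spans 76913249 to 76951578 on the minus strand and Paics (ENSMUSG00000029247) 76951307 to 76967509 on the plus strand. Whether strand was used in counting is not given in the sources used here, so reads from those bases may count for either gene. The RefSeq promoter windows of the pair (GRCm38.p6; 250 bases before to 50 after the start) are printed 5′ to 3′ on the strand of each gene, with that of Atic, the gene whose genotypes did not overlap. Capitals mark the E-box CACGTG, the binding motif of Myc and related factors.
Ppat, chr5:76951529-76951828, minus strand: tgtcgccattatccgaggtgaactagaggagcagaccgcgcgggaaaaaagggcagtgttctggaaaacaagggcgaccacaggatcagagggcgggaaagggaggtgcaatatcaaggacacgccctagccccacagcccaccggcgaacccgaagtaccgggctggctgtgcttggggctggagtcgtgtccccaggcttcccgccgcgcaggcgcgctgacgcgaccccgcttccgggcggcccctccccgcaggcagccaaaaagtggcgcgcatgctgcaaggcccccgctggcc
Paics, chr5:76951052-76951351, plus strand: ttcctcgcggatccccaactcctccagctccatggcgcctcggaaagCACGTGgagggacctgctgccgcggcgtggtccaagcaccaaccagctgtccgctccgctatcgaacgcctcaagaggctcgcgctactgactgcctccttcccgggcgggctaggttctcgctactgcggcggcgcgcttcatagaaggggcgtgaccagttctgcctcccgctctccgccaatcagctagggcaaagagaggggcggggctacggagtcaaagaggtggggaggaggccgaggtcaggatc
Atic, chr1:71556906-71557205, plus strand: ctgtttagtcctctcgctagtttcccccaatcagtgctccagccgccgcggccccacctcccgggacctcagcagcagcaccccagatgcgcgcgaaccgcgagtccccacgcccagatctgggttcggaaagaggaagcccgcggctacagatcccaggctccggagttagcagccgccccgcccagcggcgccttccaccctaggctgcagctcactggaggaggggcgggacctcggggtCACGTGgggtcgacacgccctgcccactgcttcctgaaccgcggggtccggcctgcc
Of the 31 members, 28 matched a RefSeq window, taken at the start nearest to that of GENCODE. The distance between these starts was 8304 bases for Mthfd2, whose window may miss its promoter, and at most 453 bases (Shmt1) for the others. CACGTG, which is its own reverse complement, was in 5 of the 28 (17.9%), those of Paics, Atic, Impdh2, Tyms and Nme1, and in 7.15% of all 32851 windows. The E2F motifs TTTCGCGC and TTTGGCGC and the ATF4 motif TGATGCAA were in none of the 28 on either strand, against 0.323%, 0.514% and 0.895% of all windows. The cyclic AMP response motif TGACGTCA was in 1, that of Umps, against 1.79%. These are matches of letters in 300 bases and show neither binding nor its absence. Myc itself had 221, 185 and 97.1 CPM in Gata2 KO, against 219.5, 181 and 145 CPM in Gata2 f/f.

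All 3 genes of the guanine branch and all 4 of pyrimidine synthesis also had negative values. Gmps, guanosine monophosphate synthetase, had the smallest unadjusted p of the list without the block, and Upp1 with it. Gmps had 132, 181 and 94.0 CPM in Gata2 KO 1, 2 and 3, against 196, 253 and 135 CPM in Gata2 f/f 1, 2 and 3. The difference within numbers was nearly constant, at -0.57, -0.48 and -0.52 on the log2 scale. The unblocked estimate was -0.52 ± 0.33 (unadjusted p = 0.161), since the levels of both genotypes moved with the number. With the replicate number as a block it was -0.53 ± 0.14 (edgeR, unadjusted p = 0.00943, adjusted p = 0.403). Impdh2, the inosine monophosphate dehydrogenase of proliferating cells, had 238, 283 and 202 CPM in Gata2 KO, against 305, 289.7 and 246 CPM in Gata2 f/f, at -0.22 ± 0.23. A pseudogene, Impdh2-ps, held 4841 counts beside its 33021 over the 6 libraries, so its count is uncertain. Its paralogue Impdh1 had -0.20 ± 0.26.

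Cad, the trifunctional enzyme that starts pyrimidine synthesis, showed no common direction. It had 381, 252 and 142 CPM in Gata2 KO, against 378, 234 and 284 CPM in Gata2 f/f. KO 1 and 2 were at or slightly above their f/f counterparts, KO 3 was the lowest library, and without it the log2 fold change was 0.064, against -0.21 ± 0.38 with it. Ctps, which makes cytidine triphosphate, had 96.6, 95.9 and 62.9 CPM in Gata2 KO, against 134, 112 and 81.9 CPM in Gata2 f/f (-0.36 ± 0.28, unadjusted p = 0.238). The KO library was lower within every number. Dhodh, the mitochondrial dihydroorotate dehydrogenase, and Umps, which forms uridine monophosphate, had -0.18 ± 0.24 and -0.12 ± 0.24.

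Among the 6 genes of deoxynucleotide supply, 5 had negative values. Dut, which hydrolyses dUTP and so keeps uracil out of DNA, had the lowest log2 fold change of the list, -0.53 ± 0.38. It had 144, 221 and 87.3 CPM in Gata2 KO, against 244, 259.9 and 148 CPM in Gata2 f/f. Only KO 2 lay inside the f/f range, and with the block the value was -0.59 ± 0.17 (edgeR, unadjusted p = 0.0134, adjusted p = 0.403). Rrm2, the S-phase small subunit of ribonucleotide reductase, had 261, 301 and 208 CPM in Gata2 KO, against 310.4, 341 and 259 CPM in Gata2 f/f. Rrm2b, the small subunit that p53 induces, had 13.7, 17.5 and 8.82 CPM in Gata2 KO, against 17.9, 21.4 and 15.8 CPM in Gata2 f/f. Both were lower in the KO library of each number, at -0.24 ± 0.24 and -0.46 ± 0.31. The p53-induced cell cycle inhibitor Cdkn1a, unlike Rrm2b, was higher in KO within all 3 numbers, with 404, 389 and 979 CPM in Gata2 KO against 233, 228 and 758 CPM in Gata2 f/f. Per kilobase of exon, the level of Rrm2 was 63.1, 56.7 and 77.7 times that of Rrm2b in Gata2 KO and 57.3, 52.5 and 53.9 times in Gata2 f/f. Rrm1, the large subunit, had -0.32 ± 0.30.

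Tyms, thymidylate synthase, had 67.7, 76.5 and 78.5 CPM in Gata2 KO, against 74.4, 88.5 and 67.1 CPM in Gata2 f/f. Its genotypes overlapped, at -0.05 ± 0.21. Samhd1, which breaks down deoxynucleotides and is abundant in mature myeloid cells, was the positive gene of the group. It had 87.6, 66.2 and 139.5 CPM in Gata2 KO, against 57.1, 53.2 and 129.8 CPM in Gata2 f/f, and was chosen for this description after its values were seen. Both libraries numbered 3 lay above the other 4, as for the monocyte and macrophage markers, whose part in this was not tested. The log2 fold change was 0.29 ± 0.43 (unadjusted p = 0.524), and -0.079 without Gata2 KO 3.

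**Figure D3:**
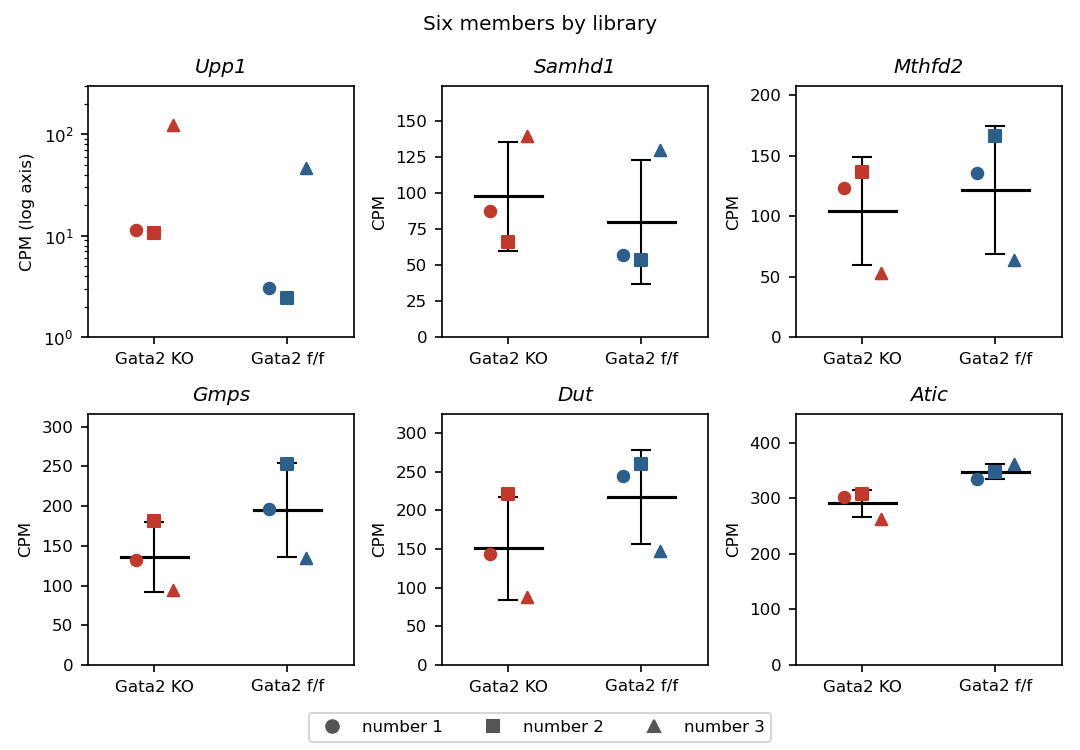
CPM in each library of Upp1 (log axis) and of Samhd1, Mthfd2, Gmps, Dut and Atic (linear axes from 0), with Gata2 KO left of Gata2 f/f; symbols give the library number, and lines and bars the mean ± SD of 3 libraries, left out for Upp1. Upp1 was at 124 and 46.8 CPM in KO 3 and f/f 3, and Atic is the gene of these 6 whose genotypes did not overlap.

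The salvage and kinase genes did not share a direction, with 3 of 7 negative and a median of 0.12. Upp1, uridine phosphorylase, splits uridine into uracil and ribose phosphate. It had 11.5, 10.7 and 124 CPM in Gata2 KO 1, 2 and 3, against 3.02, 2.45 and 46.8 CPM in Gata2 f/f 1, 2 and 3. The raw counts were 241, 198 and 2941 in Gata2 KO and 53, 55 and 1176 in Gata2 f/f. Each KO library was above the f/f library of its number, by 1.90, 2.09 and 1.40 on the log2 scale, while f/f 3 exceeded KO 1 and KO 2. Without a block, edgeR gave a log2 fold change of 1.48 ± 1.39 (unadjusted p = 0.323). DESeq2 without a block gave a log2 fold change of 1.46 ± 1.55 and no p-value. With the block it was 1.79 ± 0.22 (edgeR, unadjusted p = 0.000127, adjusted p = 0.261), while the blocked DESeq2 fit put it past the threshold (1.77, adjusted p = 1.69e-07), the one member among 222 genes called (1.75%; 1.42% called higher in Gata2 KO). Without the library labelled Gata2 KO 2, edgeR with the block called it as well (1.64, adjusted p = 0.0428). It was the one member among 54 genes called (0.378%, with 0.231% called higher). In that fit f/f 2 has no partner, so the value of Upp1 rests on the libraries numbered 1 and 3. In unblocked fits it was -0.67 without Gata2 KO 3, 4.13 without Gata2 f/f 3, and 0.96 without f/f 1 or without f/f 2. These fits leave unequal numbers in the genotypes. The level was highest in the libraries numbered 3, as was the summed level of monocyte and macrophage markers, whose part in it was not tested.

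The RefSeq window at the GENCODE start of Upp1 (ENSMUSG00000020407, GRCm38 chromosome 11, 9118103 to 9136170) is shown because it is the member called with the block. Upp1 has 3 RefSeq windows, and only this one was searched. Capitals mark TGAGTCA, the AP-1 motif, searched for after the sequence was seen.
Upp1, chr11:9117853-9118152, plus strand: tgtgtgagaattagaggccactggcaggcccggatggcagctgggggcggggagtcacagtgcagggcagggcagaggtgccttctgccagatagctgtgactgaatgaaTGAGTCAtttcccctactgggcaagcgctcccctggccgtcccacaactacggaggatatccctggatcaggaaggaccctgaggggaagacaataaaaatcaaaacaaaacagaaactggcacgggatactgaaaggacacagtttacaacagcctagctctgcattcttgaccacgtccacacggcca
TGAGTCA was on either strand in 2 of the 28 windows (7.14%), those of Upp1 and Nme1, and in 5.20% of all windows.

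Tk1, thymidine kinase, overlapped between genotypes, with 92.1, 99.9 and 96.3 CPM in Gata2 KO against 92.3, 98.6 and 74.6 CPM in Gata2 f/f (0.12 ± 0.21). Uck2, uridine-cytidine kinase, had 0.15 ± 0.21, and Dck, deoxycytidine kinase, had -0.19 ± 0.24. Cmpk1, which phosphorylates cytidine and uridine monophosphates, had 98.6, 143 and 136 CPM in Gata2 KO, against 128, 187 and 164 CPM in Gata2 f/f. It was lower in the KO library of each number by similar amounts, -0.37, -0.38 and -0.27 on the log2 scale, with an unblocked estimate of -0.34 ± 0.25 (unadjusted p = 0.218). The nucleoside diphosphate kinases Nme1 and Nme2 cannot be read as levels. Of the 1171 exon bases of Nme2, 573 (48.9%) lie on the same strand in the read-through gene Gm20390, as do 418 (12.5%) of the 3342 of Nme1, and Gm20390 had 0 counts. Nme2 had 145 counts over the 6 libraries and Nme1 3134. Nme1 had 17.4, 24.7 and 24.0 CPM in Gata2 KO, against 31.8, 32.3 and 18.4 CPM in Gata2 f/f. Nme2 had 1.19, 0.814 and 1.60 CPM in Gata2 KO, against 0.741, 0.624 and 1.59 CPM in Gata2 f/f. The genotypes overlapped for both, at -0.32 ± 0.30 and 0.28 ± 0.53.

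All 5 folate one-carbon genes had negative values, from -0.38 for Shmt1 to -0.19 for Shmt2, and were lower in the KO library of every number. The difference between numbers was larger. Mthfd2, the mitochondrial methylenetetrahydrofolate dehydrogenase of dividing cells, had 123, 136 and 53.0 CPM in Gata2 KO, against 135.5, 166 and 63.4 CPM in Gata2 f/f. Both libraries numbered 3 had less than any other library. The genotype difference was -0.22 ± 0.46, and 0.069 without Gata2 KO 3 or without Gata2 f/f 2. Shmt2, the mitochondrial serine hydroxymethyltransferase, had 341, 368 and 189 CPM in Gata2 KO, against 405, 379 and 238 CPM in Gata2 f/f. Its genotype difference was -0.19 ± 0.34, and 0.035 without Gata2 KO 3. The cytosolic Shmt1 had -0.38 ± 0.37, the cytosolic trifunctional enzyme Mthfd1 -0.27 ± 0.35 and the mitochondrial formate-releasing Mthfd1l -0.27 ± 0.31.

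Across sample numbers, 25 of the 31 genes had a lower level in number 3 than in numbers 1 and 2, where 50.1% of all genes did. The median log2 difference was -0.44 over the list and -0.001 over all genes. The edgeR F test of the number, fitted with genotype, called 3 members (9.68%), where it called 1249 of all genes (9.09%), a share close to it. With upper-quartile scaling it called 6 members (19.4%) and 11.3% of all genes, and without the filter on low counts 9 members (29.0%) and 9.76% of all genes. The test asks for any difference among the numbers, so its p-values are not those of the number 3 difference. Of all genes, 6.63% were called with number 3 above the mean of numbers 1 and 2, and 2.46% with it below. The 3 members were Mthfd2 (number 3 minus the mean of 1 and 2 of -1.27 on the log2 scale, adjusted p = 0.0195), Upp1 (3.78, adjusted p = 0.00348) and Samhd1 (1.06, adjusted p = 0.0352). Both libraries numbered 3 lay below all other 4 for 12 members (38.7%), among them all 5 one-carbon genes, where 20.4% of all genes did so. They lay above the other 4 for 4 members (12.9%), Impdh1, Samhd1, Upp1 and Nme2, against 21.1% of all genes. The proliferation genes were also lower in number 3, in 16 of 16 cases with a median of -0.78. Mki67, a marker of cycling cells, had 402, 158 and 54.3 CPM in Gata2 KO against 303, 111 and 40.4 CPM in Gata2 f/f. What a number stands for is not in the labels.

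Levels differed widely between the members once divided by exon length. Shmt2, Rrm2, Paics, Uck2 and Impdh2 ranked highest, with means of 96.2, 92.6, 88.3, 89.5 and 78.2 CPM per kilobase in Gata2 KO and of 109.6, 109.5, 109.2, 80.8 and 91.1 CPM per kilobase in Gata2 f/f. The ranges of mean ± SD of neighbours in this order overlapped in both genotypes, except those of Paics and Uck2 in Gata2 f/f. The SD (n = 3 each) was 20.8 CPM per kilobase for Paics and 8.88 for Uck2 in Gata2 KO, against 15.7 and 1.43 in Gata2 f/f. Dhodh and Rrm2b were near the low end, at 6.59 ± 1.54 and 1.46 ± 0.475 CPM per kilobase in Gata2 KO and 7.48 ± 0.340 and 2.01 ± 0.310 in Gata2 f/f. Of the serine hydroxymethyltransferases, Shmt2 per kilobase was 4.10, 3.90 and 4.80 times Shmt1 in Gata2 KO and 3.84, 3.43 and 3.60 times in Gata2 f/f. Exons of all annotated transcripts were merged, which lowers the value of genes with many long isoforms.

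**Figure D4:**
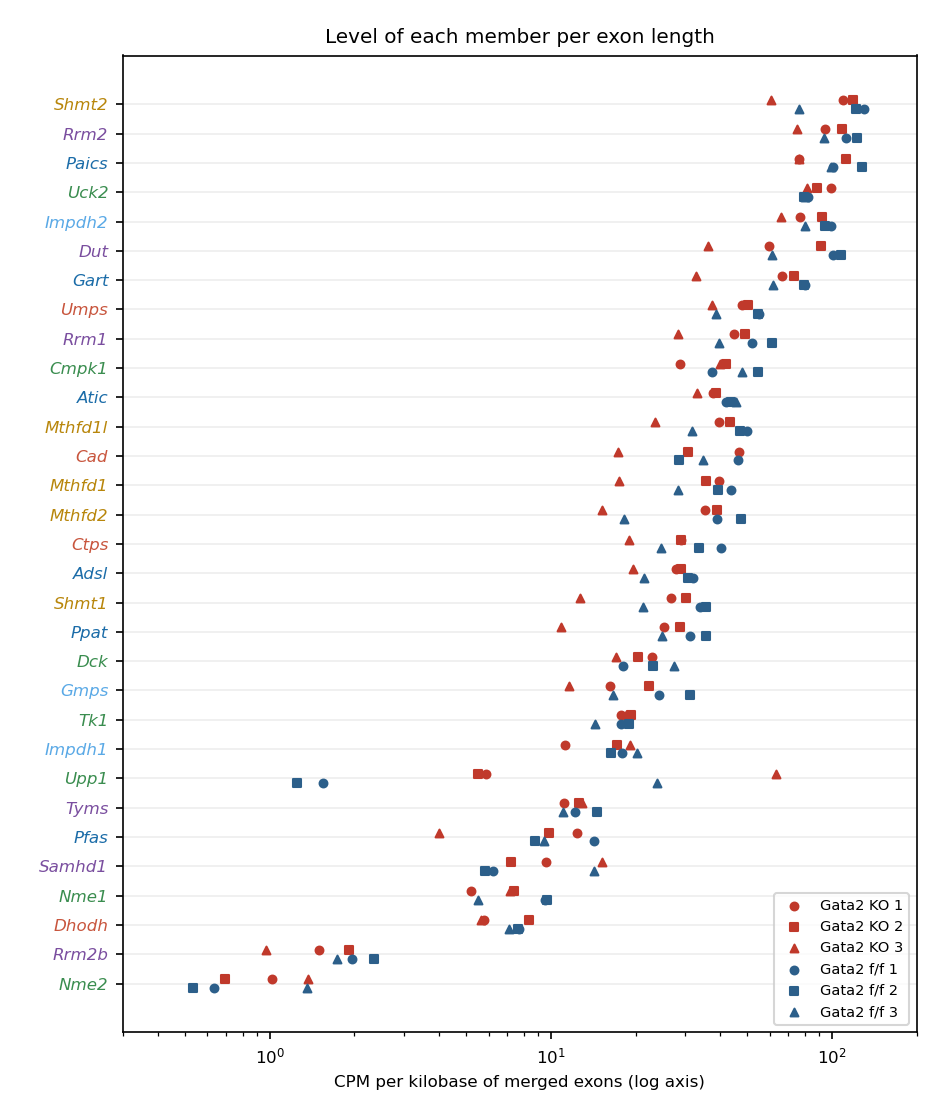
Level of each of the 31 genes per kilobase of merged exons on a log axis, ordered by the mean over 6 libraries, with Gata2 KO in red above Gata2 f/f in blue and the library number as symbol. Upp1 spans the widest range. Nme2 and Nme1 share exons with a read-through gene.

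The wider pathway, 56 further genes of serine, folate, purine and pyrimidine metabolism, had values on both sides. Of the 52 tested, 26 had a negative value and 26 a positive one, with a median of -0.008. None was called by edgeR with or without the block. Negative values were found in 3 of 4 serine and glycine genes, in 8 of 12 genes of folate handling, in 7 of 16 other purine genes and in 8 of 20 other pyrimidine and deoxynucleotide genes. Ada, adenosine deaminase, had 56.6, 41.8 and 77.9 CPM in Gata2 KO, against 31.6, 38.4 and 29.2 CPM in Gata2 f/f. All 3 KO libraries were above all 3 f/f libraries, at 0.83 ± 0.28 (unadjusted p = 0.0211, adjusted p = 1.00), a layout that 2.64% of all genes had. Pnp2, a purine nucleoside phosphorylase paralogue, had 10.7, 10.5 and 24.5 CPM in Gata2 KO, against 5.42, 6.29 and 8.17 CPM in Gata2 f/f. It did not overlap either (1.20 ± 0.41, unadjusted p = 0.0208). It was the one gene of these 52 called by DESeq2 when blocked (1.09, adjusted p = 0.0395). That fit called 1.75% of all genes, and 1.42% as higher in Gata2 KO. The Pnp2 gene, 50955992 to 50964749 on GRCm38 chromosome 14, lies inside the annotated span of Pnp, so the count of Pnp2 is uncertain. Xdh, xanthine dehydrogenase of purine breakdown, had 52.0, 29.3 and 75.7 CPM in Gata2 KO, against 28.5, 21.2 and 52.9 CPM in Gata2 f/f (0.61 ± 0.45).

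On the lower side, the mitochondrial folate carrier Slc25a32 had 15.5, 17.6 and 11.8 CPM in Gata2 KO, against 20.99, 23.8 and 19.3 CPM in Gata2 f/f. The genotypes did not overlap, at -0.51 ± 0.25 (unadjusted p = 0.0818), a layout with KO lower that 2.78% of all genes had. Prps2, which makes the ribose phosphate that Ppat uses, had 53.3, 69.6 and 47.1 CPM in Gata2 KO, against 68.1, 77.2 and 88.7 CPM in Gata2 f/f (-0.46 ± 0.24). The purine salvage gene Hprt had 178, 303 and 257 CPM in Gata2 KO, against 289.5, 418 and 268 CPM in Gata2 f/f (-0.40 ± 0.29). Both overlapped between genotypes, and both were lower in the KO library of each number.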

How the data were processed

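The authors deposited raw gene counts, as whole numbers, for all 6 libraries in 1 table. Per the labels' protocols, poly(A) RNA was read from both ends on an Illumina HiSeq after NEBNext library preparation. Among tools, kallisto, HTSeq and DESeq2 appear in the submitters' processing notes, with mm10 as build and without roles or versions. The counting annotation and strand setting are not stated in these sources. Of 49585 identifiers, 49326 matched GENCODE M21 (GRCm38) without their version, and symbols, positions and exon lengths come from that match.

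Genes were kept by filterByExpr (minimum count 10; 13744 genes with 99.9% of the counts) and compared by edgeR's quasi-likelihood test (robust, TMM, no block), Gata2 KO over Gata2 f/f, with adjustment over all genes tested at 0.05. CPM values use TMM-scaled library sizes; the SE comes from the F statistic; log2 CPM values used a prior count of 2. The label numbers were checked as pairs before fits were compared. Deviations from the group means correlated at 0.29, 0.55 and 0.65 for numbers 1, 2 and 3. All were over 0.1, so the numbers were taken to pair the libraries. However, f/f 1 correlated more with KO 2 (0.46) than with KO 1, and f/f 2 with KO 1 was also over 0.1 (0.104). The check therefore does not show that numbers 1 and 2 pair as labelled, and the fits with the block rest on that pairing. The labels say nothing of a shared source, so p-values reflect only the variation among these samples, which may be technical. No library pair was a duplicate (chi-square per degree of freedom of at least 38.0). The lowest value, 38.0, was between Gata2 KO 2 and Gata2 f/f 1, and the next, 77.0, between KO 2 and f/f 2. KO 2 against KO 1 and against KO 3 gave 159 and 337. Gata2 KO 2 was kept as labelled. Reads carry no molecular identifiers. R 4.3.3, edgeR 4.0.16, limma 3.58.1 and DESeq2 1.42.0 were used.

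The members and lists were chosen with earlier results of these data known. Per-library values are given for the 8 members of smallest p, any member called with or without the block, and 12 members fixed by name. They are also given for the 3 other pathway genes of smallest p in each direction. Samhd1, Cd34, Kit, Mpo, Elane, Meis1 and Plk1 were added after their values were seen. Alternatives were DESeq2's size factors, upper-quartile scaling, no filter, a filter at a mean CPM of 1, limma voom, DESeq2, the block in edgeR and DESeq2, and libraries left out. Overlapping and near-identical genes can share or split counts.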

Additional observations from a re-analysis of the deposited data

How the results depend on the processing

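The list's count of positive genes (5 of 31; 4 to 7 over all settings) and its median log2 fold change (-0.24; -0.39 to -0.11 with single libraries left out) kept their direction under every setting run. With the replicate block, edgeR called 0 genes and 0 members, at a list median of -0.26, and changed no call. The count of genes called was 7 with DESeq2, 222 with DESeq2 and the block, and 54 with the block when Gata2 KO 2 was left out; the last 2 settings each called 1 member, Upp1. The members called between numbers were 3, against 6 with upper-quartile scaling and 9 without the filter (of all genes 9.09%, 11.3% and 9.76%). The median of the other pathway genes (-0.008) was -0.12 to 0.0020 with single libraries left out and -0.094 without both libraries numbered 3. With single libraries left out, sign changed within these ranges of log2 fold change: Pfas -0.66 to 0.012, Cad -0.61 to 0.064, Samhd1 -0.079 to 0.79, Upp1 -0.67 to 4.13, Nme2 -0.0029 to 0.78, Shmt2 -0.43 to 0.035, Mthfd2 -0.58 to 0.069, Tyms -0.17 to 0.069 and Tk1 -0.029 to 0.20. Without both libraries numbered 3, Cad had 0.020, Tk1 -0.025 and Dck 0.036, and with the block without Gata2 KO 2 Tyms had 0.041. The cause was not tested. Single-gene values kept their sign and side of the threshold in 480 cases, turned in 14 and newly passed the threshold in 2. Intervals and SEs reflect 3 libraries per genotype; Upp1 has the largest SE of the members without the block, 1.39.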
